A study of Homo sapiens with 20 samples.

Results

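The interleukin-1 (IL-1) system was examined in RNA-seq counts of U2-OS cells, a human osteosarcoma line. The 10 genes IL1A, IL1B, IL18, IL33, IL1RN, IL1R1, IL1RAP, MYD88, IRAK1 and IRAK2 were chosen by name, as ligands, antagonist, receptor chains and adaptors of the pathway, and each had 1 entry among the 20314 genes of the table. The 20 libraries formed 4 groups of 5. They came from untreated cells, from cells harvested 1.5 h (90 minutes in the labels) or 7 days after ionizing radiation (IR) with 20 Gy, and from cells carrying an shRNA against NFKBIA, the gene of the inhibitor IκBα. The labels give no irradiation for the NFKBIA group. In the study 1.5 h and 7 days post-IR stand for a first and a second phase of NF-κB activity, and the knockdown for loss of the inhibitor without damage. All groups were of this 1 line. The paper describes the knockdown as a doxycycline-inducible shRNA in cells that were not irradiated. Its methods describe lentiviral transduction, clonal selection with puromycin, and control cells given doxycycline that express a scrambled shRNA. The sources used here do not say whether the knockdown libraries came from 1 clone or whether the untreated libraries came from such control cells. The effect of the knockdown and that of the vector, of selection or of doxycycline cannot be told apart from these labels.

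IL-1α (IL1A) and IL-1β (IL1B) are cytokines that bind the receptor IL1R1, which then recruits the accessory chain IL1RAP. The adaptor MYD88 joins this complex and brings in the kinase IRAK1 and its relative IRAK2, and the signal ends in activation of NF-κB and MAP kinases. IL1RN encodes a receptor antagonist, and IL18 and IL33 encode relatives that signal through receptors of their own and the same adaptor. IL-1α is known as an upstream member of the secretory phenotype of senescent cells, and IL1A and IL1B are themselves NF-κB targets.

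The libraries held 22535659 to 40390961 counts on genes (median 33800193). NFKBIA itself was at 23.5 to 42.0 CPM, which are counts divided by the scaled size of the library, in untreated libraries, at 76.3 to 88.3 at 1.5 h, at 28.4 to 32.4 at 7 days and at 11.2 to 13.0 in the knockdown libraries, so the knockdown libraries were below every other library. Untreated replicate 5 stood apart. It was the smallest library, the only untreated library of sequencing lane 3, and its mean deviation from its group was 0.337 on the log2 scale over all genes tested, against 0.0732 to 0.237 in the other libraries. The summed level of 11 osteoblast lineage markers was 4011 to 4759 CPM in untreated and 2765 to 3188 CPM in 7-day libraries (2810 to 2977 in the knockdown), led by SPARC and COL1A1, while SP7 and IBSP never passed 3 counts and DLX5 was at 0 in all libraries. Of the 8 tested, 3 were called higher (ALPL, SPP1 and MSX2) and 1 lower (SPARC) at 7 days, and 2 lower in the knockdown. The summed level of 11 leukocyte markers was 4.75 to 8.09 CPM in untreated and 13.1 to 14.4 CPM in 7-day libraries (5.67 to 6.80 in the knockdown). AIF1 and FCGR3A had 3 counts at most. Of the 5 tested, 2 were called higher and 1 lower at 7 days, and 1 higher and 2 lower in the knockdown. ITGAM averaged 2.17 CPM in untreated and 5.95 CPM in 7-day libraries, and CD3D 1.07 and 4.86 CPM, with 3.48 CPM in the knockdown, while CD79A averaged 0.471 and 0.228 CPM. Of 7 epithelial and keratinocyte markers tested, 5 were called lower at 7 days and 4 in the knockdown, and none higher. The part of these shifts in the results below was not tested. In these bulk samples, fewer cells with a transcript and less of it per cell cannot be told apart.

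The clearest changes lay in IL1A and IRAK2, and IL1B had more than 3 counts only at 7 days. To show the genes that moved beside a relative that did not, the bases just upstream of IL1A, IL1B, IRAK2 and IRAK1 are printed from RefSeq's GRCh38.p14 start sites, 5′ to 3′ on the gene's own strand. Each stretch runs from 250 bases before the start to the base before the outermost GENCODE 29 exon in that window. Capitals mark a match to the NF-κB consensus (κB).
IL1A: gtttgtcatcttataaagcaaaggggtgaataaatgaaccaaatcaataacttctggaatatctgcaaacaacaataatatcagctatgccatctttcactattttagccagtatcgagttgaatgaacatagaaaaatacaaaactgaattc
IL1B: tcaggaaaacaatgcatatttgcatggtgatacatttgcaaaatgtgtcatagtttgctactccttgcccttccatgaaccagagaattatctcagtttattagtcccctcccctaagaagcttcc
IRAK2: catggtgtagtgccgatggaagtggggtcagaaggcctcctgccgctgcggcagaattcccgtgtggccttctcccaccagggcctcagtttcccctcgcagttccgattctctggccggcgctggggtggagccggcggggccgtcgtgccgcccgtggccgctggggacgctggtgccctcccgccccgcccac
IRAK1: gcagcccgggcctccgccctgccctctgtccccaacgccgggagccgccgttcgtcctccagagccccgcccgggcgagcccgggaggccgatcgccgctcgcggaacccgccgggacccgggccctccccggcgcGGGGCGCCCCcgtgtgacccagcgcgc
These lie at chr2:112784591-112784743 (minus strand), chr2:112836904-112837029 (minus), chr3:10164669-10164864 (plus) and chrX:154019990-154020152 (minus). The κB consensus was searched on both strands of the full 250 bases. It was found in IRAK1, 114 bases before the start and on both strands since it is a palindrome, and not in IL1A, IL1B or IRAK2. Of 35116 RefSeq promoters, 9.961% held such a match. TGANTCA, the letters bound by AP-1, was added to the search after the sequences had been seen. It occurred 12 bases before the upstream start of IL1A, outside the bases printed. IL1A has another RefSeq start downstream, whose window held this match and one more, 55 bases before that start. There was no match in the windows of the other 3 genes, while 6.573% of promoters held it. A match describes letters only, and the lack of one in this window says nothing of the factor elsewhere.

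In GENCODE 29 (GRCh38), IL1A spans chr2:112773915-112784590 and IL1B chr2:112829751-112836903, both on the minus strand, and neither overlaps another gene. IRAK2 (chr3:10164865-10243743), MYD88 (chr3:38138478-38143022), IL33 (chr9:6215786-6257983) and IL1RN (chr2:113107214-113134016) are on the plus strand, likewise with no overlap. IL18 (chr11:112143251-112164117, minus) lies wholly within AP002884.3 of the other strand, IL1R1 (chr2:102064544-102179874, plus) shares 7254 bases with the antisense gene IL1R1-AS1, IL1RAP (chr3:190514051-190659750, plus) holds 3 small entries of its own strand, and IRAK1 (chrX:154010500-154019980, minus) shares 61 bases with MIR718 of its own strand. Whether counting used strand is not given in the sources used here, so values of IL18 and IL1R1 may hold reads of the opposite strand.

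Levels per gene length, in CPM per kb, set the genes in a clear order. In untreated cells IRAK1 (117 ± 11.4, SD, n = 5) and IL18 (108 ± 10.3) were far above the rest and overlapped each other. MYD88 followed at 7.07 ± 2.31, then IL1R1 at 2.91 ± 0.736 and IL1RAP at 2.61 ± 0.334, whose libraries overlapped. IRAK2 (0.415 ± 0.0343) and IL1A (0.234 ± 0.0845) came next, and IL1RN (0.0557 ± 0.0239) and the nearly absent IL33 and IL1B closed the order. At 7 days IL1A reached 4.57 ± 0.528 CPM per kb and stood above IL1R1 (3.21 ± 0.161) and IL1RAP (2.96 ± 0.125), although still far below IL18 (110 ± 3.53). The ratio of IL1A to IL1R1 per length was 0.0896 ± 0.0482 in untreated cells, 0.169 ± 0.0348 at 1.5 h, 1.42 ± 0.118 at 7 days and 0.437 ± 0.0954 in the knockdown. The plot of levels per length shows this order.

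**Figure D1:**
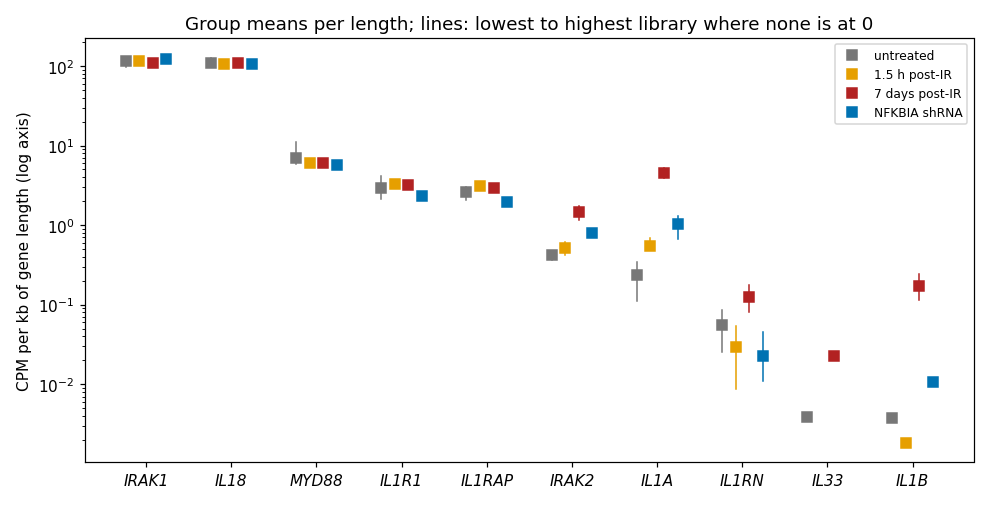
Mean level of each gene in CPM per kb of gene length (log axis) in the 4 groups of 5 libraries, with lines from the lowest to the highest library where none is at 0 (a group whose mean is 0 is not drawn). IL1A passes from 0.234 in untreated cells to 4.57 at 7 days, while IRAK1 and IL18 stay between 107 and 124.

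For each gene tested, 1 quasi-likelihood model of edgeR was fitted to all 20 libraries. Calls needed a log2 fold change beyond 0.5 in either direction together with a p value under 0.05 after Benjamini-Hochberg adjustment over the 14992 genes tested. Of the 10 genes 8 were tested, and IL1RN and IL33 had too few counts. IL1B passed the filter only through the 7-day group in which it is high, so its call at 7 days followed from the filter in part. The comparisons of irradiated and knockdown cells with untreated cells share the 5 untreated libraries. At 1.5 h post-IR 1 of the 8 was called higher and none lower, where 2.08% of all genes tested were called higher and 1.57% lower (3.66% either way). At 7 days 3 were called higher and none lower, against 16.7% and 14.4% of all genes (31.1% either way). The knockdown had 2 called higher and none lower, against 5.18% and 7.53% (12.7% either way). Between 7 days and 1.5 h 3 were called higher, where 16.8% of all genes were (29.3% either way), and between 7 days and the knockdown 4 were, where 15.8% of all genes were (25.7% either way). In neither was one of the 8 called lower, against 12.6% and 9.89% of all genes. With 8 genes tested, these counts describe the genes and do not set them apart from the rest.

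IL1A, the cytokine IL-1α, was called higher in all 3 groups. Its level in untreated replicates 1 to 5 was 0.445, 0.581, 0.50, 0.725 and 0.238 CPM, from 5 to 22 counts a library. At 1.5 h it was 1.45, 1.10, 1.18, 1.03 and 1.02 CPM (35 to 57 counts). At 7 days it was 9.33, 8.21, 11.2, 10.3 and 9.49 CPM (250 to 389 counts). In the knockdown it was 1.71, 1.43, 2.63, 2.42 and 2.76 CPM (47 to 88 counts). All libraries of the 3 groups lay above every untreated library, and those at 7 days above all others, while 1.5 h and knockdown libraries overlapped. IL1A was 1.17 ± 0.235 (SE) higher on the log2 scale at 1.5 h (adjusted p = 0.00121, edgeR) and 2.08 ± 0.218 higher in the knockdown (adjusted p = 2.01e-07, edgeR). The rise at 7 days was 4.23 ± 0.191 (adjusted p = 6.88e-14, edgeR). The 7-day level also exceeded the knockdown by 2.16 ± 0.154 (adjusted p = 1.43e-10, edgeR). Each of these comparisons had an exact permutation p of 0.00794, the smallest that 5 against 5 libraries allow. Lane moved with group, and no lane held untreated libraries beside 7-day or knockdown libraries. Within lane 3, 3 libraries at 1.5 h differed from untreated replicate 5 by 2.36, which is the untreated library with the fewest IL1A counts. Within lane 4, 7 days exceeded 1.5 h by 3.08, and within lane 5, 3 libraries at 7 days exceeded knockdown replicate 1, the only knockdown library of that lane and one of the lower for IL1A, by 2.59 (log2 fold changes).

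IL1B, the cytokine IL-1β, was almost absent outside the 7-day group. The untreated libraries had 1, 1, 0, 0 and 0 counts, those at 1.5 h 0, 0, 1, 0 and 0, and those of the knockdown 0, 1, 2, 2 and 0. The 7-day libraries had 21, 12, 26, 17 and 10 counts, a mean of 0.527 ± 0.161 CPM (SD, n = 5), and all lay above every other library. Against 3 counts a library, the level a count of 0 still allows, IL1B was at least 5.39-fold higher at 7 days than in untreated cells, at least 6.27-fold higher than at 1.5 h and at least 5.43-fold higher than in the knockdown. With lane as a factor the call against untreated cells was lost (adjusted p = 0.0612, edgeR), though the fitted log2 difference was larger, at 8.84 instead of 5.05. Both depend on the prior count, since untreated counts were at or near 0. Counts in the other 3 groups were too few to compare them. Per length, IL1B stayed below IL1A in every 7-day library.

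IL1RN, the antagonist, was low in all groups and did not pass the filter, so the exact permutation test was used. Untreated libraries had 6, 3, 11, 4 and 5 counts, 1.5 h libraries 2, 6, 1, 2 and 6, 7-day libraries 11, 8, 15, 14 and 16, and knockdown libraries 5, 2, 3, 1 and 1. Its mean level was 0.181 ± 0.0777, 0.0961 ± 0.0697, 0.403 ± 0.119 and 0.0739 ± 0.0465 CPM in this order (SD, n = 5). The 7-day libraries lay above all 1.5 h and knockdown libraries (exact permutation p = 0.00794 for each) and overlapped with the untreated ones (exact permutation p = 0.0159, two-sided). The knockdown libraries overlapped with the untreated ones (exact permutation p = 0.0397). These p values were not adjusted over the 10 genes. Without the filter on low counts, IL1RN was higher at 7 days than in untreated cells by 1.10 on the log2 scale (adjusted p = 0.0107, edgeR). In that fit the 7-day level was also called above 1.5 h (adjusted p = 0.000143, edgeR) and 2.31 above the knockdown (adjusted p = 8.13e-05, edgeR). The knockdown against untreated cells was -1.21 and not called (adjusted p = 0.0675, edgeR). IL1RN also passed the filter in 16 of the fits that left out 1 library. In 13 of them it was not called in the knockdown against untreated cells (adjusted p from 0.0542 to 0.185, edgeR). It was called lower without untreated replicate 2, untreated replicate 4 or knockdown replicate 1, by -1.39, -1.29 and -1.58.

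The related ligands behaved differently from each other. IL18, which encodes an interferon-γ-inducing cytokine, was abundant and nearly constant, at 285 ± 26.9 CPM in untreated cells, 281 ± 9.84 at 1.5 h, 290 ± 9.29 at 7 days and 282 ± 12.4 in the knockdown (SD, n = 5). The 95% intervals of its log2 fold changes against untreated cells lay within -0.134 and 0.138. IL33, an alarmin, had 1, 0, 0, 1 and 0 counts in untreated libraries, 4, 3, 4, 1 and 0 at 7 days and 0 in all libraries of the other groups. Without the filter edgeR called it higher at 7 days than in untreated cells (adjusted p = 0.0440), while the libraries overlapped and the exact permutation p was 0.0873. No fold is given for it, since nearly all of its libraries were at or under 3 counts and a fitted fold then depends on the prior count.

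**Figure D2:**
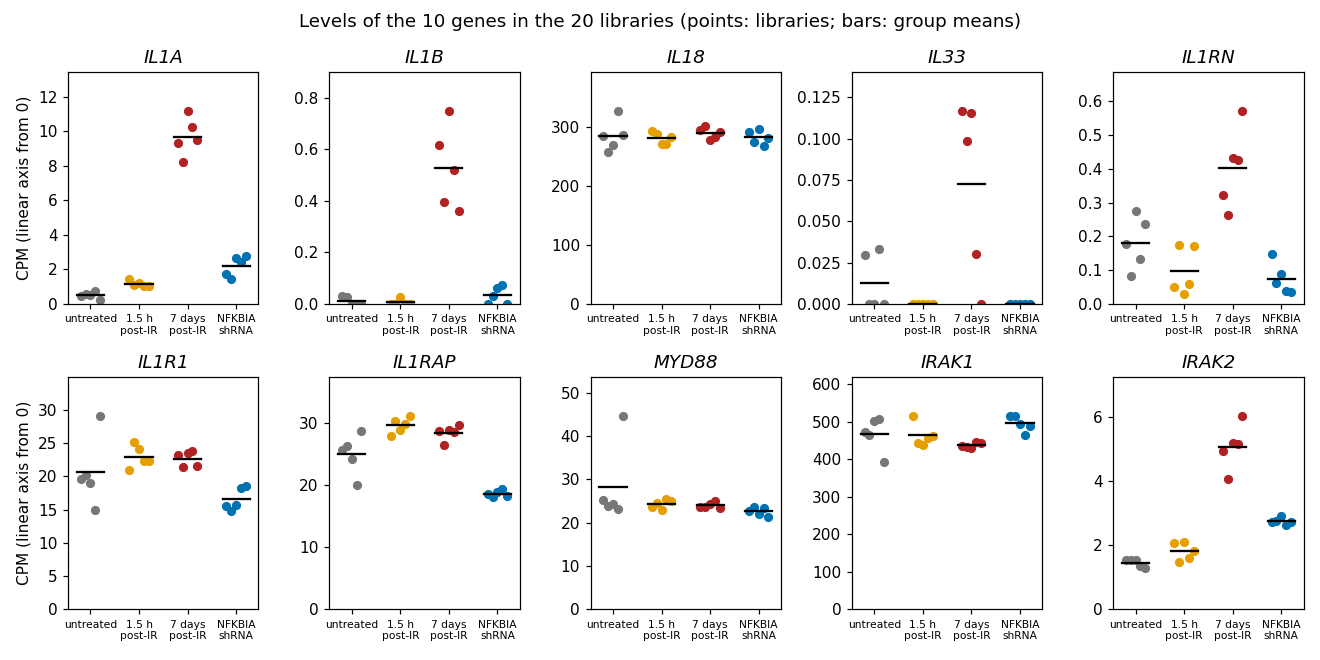
CPM of the 10 genes in each of the 20 libraries (points, replicates 1 to 5 from left to right) with group means (bars), on linear axes from 0. IL1A, IL1B and IRAK2 are highest in the 5 libraries at 7 days, IL1RAP is lowest in the knockdown, and 1 untreated library is high for MYD88.

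Both receptor chains were lowest in the knockdown, and IL1RAP more clearly so. IL1RAP, the accessory chain, was at 25.7, 26.3, 24.2, 20.1 and 28.7 CPM in untreated libraries and at 18.0 to 19.3 CPM in the knockdown, all below every other library of the series. The knockdown stood at -0.42 against untreated cells on the log2 scale (SE 0.0685, adjusted p = 4.64e-05, edgeR) and this stayed under the size needed for a call. At 1.5 h IL1RAP was at 27.9 to 31.2 CPM and at 7 days at 26.4 to 29.7 CPM. These were 0.25 (adjusted p = 0.0123, edgeR) and 0.19 (adjusted p = 0.0196, edgeR) above untreated cells on the log2 scale, again too small for a call. With lane as a factor the 2 differences were 0.014 and -0.13, and without untreated replicate 4 they were 0.17 and 0.094. IL1RAP was called higher at 7 days than in the knockdown, by 0.61 ± 0.0683 (adjusted p = 1.33e-07, edgeR).

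IL1R1, the signalling receptor, was at 19.6, 20.3, 19.1, 15.0 and 29.2 CPM in untreated libraries, the last being replicate 5. It was at 21.0 to 25.1 CPM at 1.5 h, 21.4 to 23.8 CPM at 7 days and 14.8 to 18.5 CPM in the knockdown. All knockdown libraries were below those of both irradiated groups and overlapped with the untreated ones. IL1R1 was -0.31 in the knockdown against untreated cells on the log2 scale (adjusted p = 0.0406, edgeR) and 0.46 higher at 7 days than in the knockdown (adjusted p = 0.00207, edgeR), neither large enough for a call. Its differences from untreated cells at 1.5 h (0.17, adjusted p = 0.334, edgeR) and at 7 days (0.15, adjusted p = 0.266, edgeR) did not pass, and with lane as a factor they were -0.32 and -0.32. In that fit the knockdown was called lower than untreated cells for IL1R1, by -0.89 (adjusted p = 0.0107, edgeR), and for IL1RAP, by -0.78 (adjusted p = 0.00393, edgeR). Untreated replicate 5 alone ties untreated cells to the other lanes there, and it was the untreated library highest for both genes. In the fit without lane, leaving that library out gave -0.18 for IL1R1 and -0.39 for IL1RAP. IL1R1 was also called higher at 7 days than in the knockdown with lane as a factor, by 0.57 (adjusted p = 0.00636, edgeR). Lane 5 held 3 libraries at 7 days and only knockdown replicate 1, and within it the difference was 0.56. The ratio of IL1RAP to IL1R1 per length was close to even in all groups, with means from 0.834 ± 0.0777 in the knockdown to 0.954 ± 0.0650 at 1.5 h.

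The adaptor MYD88 was not called in any comparison. Untreated replicate 5 was at 44.7 CPM and the other untreated libraries at 23.2 to 25.1 CPM, beside 23.0 to 25.4 at 1.5 h, 23.5 to 24.9 at 7 days and 21.3 to 23.7 in the knockdown. Its log2 fold changes against untreated cells were -0.20, -0.22 and -0.31 at 1.5 h, at 7 days and in the knockdown. Without untreated replicate 5 they were 0.0057, -0.029 and -0.11. With lane as a factor, where this library alone ties untreated cells to the other lanes, MYD88 was called lower in all 3, by -0.91, -1.01 and -1.11.

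The kinases IRAK1 and IRAK2 took different courses. IRAK1 was at 468 ± 45.5, 463 ± 30.5, 437 ± 7.52 and 496 ± 21.0 CPM in untreated, 1.5 h, 7-day and knockdown libraries (SD, n = 5) and was called in no comparison. Its 7-day libraries lay below those of the knockdown, by -0.18 on the log2 scale (adjusted p = 0.0130, edgeR), under the size needed for a call. IRAK2 was at 1.54, 1.52, 1.53, 1.35 and 1.28 CPM in untreated libraries. It was at 2.06, 1.47, 2.11, 1.61 and 1.81 CPM at 1.5 h, at 4.94, 4.07, 5.19, 5.17 and 6.05 CPM at 7 days and at 2.74, 2.76, 2.90, 2.64 and 2.73 CPM in the knockdown. The 7-day libraries were above all others and the knockdown libraries above all untreated and 1.5 h libraries, whereas 1.5 h overlapped with untreated. IRAK2 was higher at 7 days by 1.80 ± 0.111 (adjusted p = 1.10e-11, edgeR) and in the knockdown by 0.92 ± 0.118 (adjusted p = 2.82e-06, edgeR). The 1.5 h difference of 0.32 ± 0.122 did not pass (adjusted p = 0.0680, edgeR). From 1.5 h to 7 days it was 1.48 ± 0.106 higher (adjusted p = 1.32e-10, edgeR), and 1.38 within lane 4. At 7 days it exceeded the knockdown by 0.88 ± 0.103 (adjusted p = 2.51e-07, edgeR), and by 0.98 within lane 5, where knockdown replicate 1 was the only knockdown library. Even so, IRAK2 remained a small part of the pair, with a ratio to IRAK1 per length of 0.00356 ± 0.000304 in untreated cells and 0.0134 ± 0.00175 at 7 days.

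**Figure D3:**
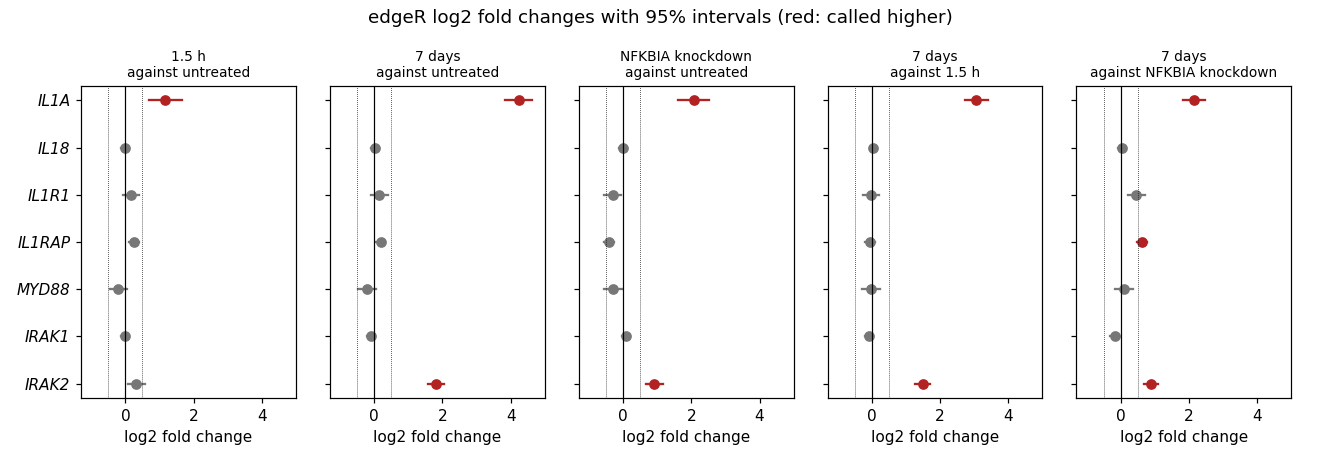
Log2 fold changes of the 7 genes with enough counts in each group (points) with 95% intervals (lines) in the 5 comparisons, with dotted lines at -0.5 and 0.5. IL1A is called higher in all 5, IRAK2 in 4 and IL1RAP in 7 days against the knockdown, and IL18, IL1R1, MYD88 and IRAK1 lie between -0.31 and 0.46.

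Libraries that did not overlap were counted for the 10 genes beside all genes tested. For 3 of the 10 the 7-day libraries were wholly above the untreated ones and for none wholly below, beside 24.4% and 20.4% of all genes (44.8% either way). Against 1.5 h the 7-day libraries were wholly above for 4 genes, IL1RN being the addition, and wholly below for none (31.9% and 29.9% of all genes, 61.8% either way). Against the knockdown they were wholly above for 6 (30.6%), IL1A, IL1B, IL1RN, IL1R1, IL1RAP and IRAK2, and wholly below for 1, IRAK1 (30.1%, and 60.7% either way). The knockdown libraries were wholly above the untreated ones for IL1A and IRAK2 (12.3% of all genes) and wholly below for IL1RAP (11.8%, and 24.1% either way). At 1.5 h the libraries were wholly above the untreated ones for IL1A and wholly below for none (7.42% and 4.85% of all genes, 12.3% either way).

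Of the genes tested, those closest to IL1A in their 3 log2 fold changes against untreated cells were SH2D1B, SPATS1, ACP5, TRPV2 and LAIR2, at Euclidean distances of 0.648 to 0.815 over these 3 comparisons. TRPV2, a cation channel, averaged 0.291 CPM in untreated and 5.79 CPM in 7-day libraries, and the other 4 did not average more than 1.07 CPM at 7 days. Those closest to IL1R1 were DGKD, MAPK9, ZNF736, ZNF680 and PRDM11, at distances of 0.0420 to 0.0637. MAPK9, which encodes the kinase JNK2, averaged 61.6, 70.8, 68.8 and 51.0 CPM in untreated, 1.5 h, 7-day and knockdown libraries. Of the 5, all but TRPV2 would have failed the filter without the 7-day libraries, and with so few counts elsewhere their folds and distances depend on the prior count. Likeness rests on group means that share the untreated libraries.

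Of 15 other ligands and receptors of the IL-1 family 8 were tested. At 7 days 4 were called higher and none lower, where 16.7% and 14.4% of all genes were, with a median log2 fold change of 1.14 against 0.01 over all genes. IL36B, a ligand of the IL-36 branch, went from 0.177 ± 0.0735 CPM in untreated cells to 2.18 ± 0.359 CPM (log2 fold change 3.67). IL36RN, the antagonist of that branch, had at most 2 counts in untreated libraries and 18 to 54 at 7 days, at least 11.8-fold higher. Both passed the filter only through the 7-day group, so their calls there and the list's median followed from the filter in part. IL1RAPL1, an accessory-like chain known from neurons, was 1.73 higher on the log2 scale. IL18RAP, the accessory chain of the IL-18 receptor, was 1.60 higher at 7 days and was also the 1 gene of this list called at 1.5 h, by 1.42 (3.66% of all genes either way), where the list's median was 0.03 and that of all genes -0.03. With lane as a factor 2 of the list were called higher at 1.5 h and 1 lower in the knockdown. In the knockdown none of the 8 was called with all libraries by edgeR without lane or by DESeq2 (12.7% of all genes). There 1 had an unadjusted p under 0.05, a level for which the share of all genes was not counted, here and below. Without untreated replicate 5 the number called became 2 at 1.5 h and 1 in the knockdown, and 1 in the knockdown also without knockdown replicate 3. The median was -0.24, or -0.10 with IL36RN, at most 2 counts in either group, set to no change, against -0.01 over all genes. From 1.5 h to 7 days 3 were called higher and 1 lower (median 0.40), where 16.8% and 12.6% of all genes were, the latter being IL18R1, the ligand-binding chain for IL-18, by -0.57. At 7 days against the knockdown 5 were called higher, among them the decoy receptor IL1R2 by 1.55 (which also passed the filter only with the help of 7-day libraries), and 1 lower, IL18R1 by -0.68 (median 1.58), where 15.8% and 9.89% of all genes were. The median of all genes was 0.01 and 0.00015 in these comparisons. The list's medians there hold IL36B, IL36RN and IL1R2, so they too followed from the filter in part.

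Few intracellular signalling genes passed the size needed for a call. Of 16 genes 15 were in the table and 14 tested, with medians between -0.10 and 0.04 in all comparisons, near those of all genes. PELI1, which encodes a ubiquitin ligase of IRAK proteins, was called higher at 1.5 h by 0.61. IKBKB, the gene of the kinase IKKβ, was called higher at 7 days by 0.65. Each was the 1 gene of the list called in its comparison, where 3.66% and 31.1% of all genes were called, and 6 and 9 of the 14 had an unadjusted p under 0.05. When each of the 20 libraries was left out in turn, the count at 1.5 h was 2 or 3 in 15 of the fits and 1 in the rest. It was 3 without untreated replicate 2 or 1.5 h replicate 1, and at 7 days it was 2 without untreated replicate 2. With lane as a factor 5 were called higher and 3 lower at 1.5 h, 4 and 3 at 7 days, and 3 and 3 in the knockdown. That fit ties untreated cells to the other lanes through untreated replicate 5 alone, and the share of all genes called in it was not counted. Compared with 1.5 h, IKBKB at 7 days was again higher, by 0.57, and PELI1 and its relative PELI2 lower, by -0.81 and -0.69. In the knockdown against untreated cells and in 7 days against the knockdown none was called by edgeR without lane or by DESeq2. Of all genes, 12.7% and 25.7% were called either way. In each of the 2 comparisons 7 had an unadjusted p under 0.05, a level for which the share of all genes was not counted. The knockdown had 1 called lower without untreated replicate 1 or 4, and 7 days against the knockdown had 1 called lower without 7-day replicate 2 or 5 or knockdown replicate 1 or 3. TRAF6, the ubiquitin ligase downstream of IRAK proteins, was at 27.7 ± 5.20 CPM in untreated cells, 33.5 ± 1.32 at 1.5 h and 29.2 ± 0.997 at 7 days (SD, n = 5) and was not called.

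Among 12 genes of IL-1 processing and release, 8 were tested. CASP1, the protease that cuts pro-IL-1β, was at 0.516 ± 0.135 CPM in untreated cells, 3.68 ± 0.869 at 7 days and 1.27 ± 0.439 in the knockdown (SD, n = 5). It was called higher at 7 days by 2.81 and in the knockdown by 1.27 on the log2 scale. NLRP3, an inflammasome sensor, was at 8.13 ± 1.12 CPM in untreated cells and 23.0 ± 1.08 at 7 days, and was called higher by 1.49. CAPN2, a subunit of the calpain that can cut pro-IL-1α, was called higher at 7 days by 0.55. No other gene of this list was called against untreated cells at 7 days (16.7% of all genes were higher) or in the knockdown (5.18%), although 6 and 2 were called without the filter on low counts. At 1.5 h none was called by edgeR without lane or by DESeq2 (3.66% of all genes either way), and 3 had an unadjusted p under 0.05. With lane as a factor 1 was called higher at 1.5 h, and without a minimum on the fold change 2 were called lower. The medians were -0.05 at 1.5 h, 0.30 at 7 days and -0.10 in the knockdown. The 7-day libraries against those at 1.5 h and against the knockdown had 4 called higher and none lower each (16.8% and 15.8% of all genes higher), with medians of 0.39 and 0.42. Against 1.5 h this fell to 2 without 1.5 h replicate 1 or 7-day replicate 3. PYCARD, the adaptor that links NLRP3 to CASP1, had at most 1 count in any library.

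Of 19 genes known to respond to IL-1, 18 were in the table and 15 were tested. Most of them are also NF-κB targets in other settings. At 1.5 h 8 were called higher and none lower (median 0.58), where 2.08% of all genes were higher, and with lane as a factor 5 were. The largest changes were in the chemokine gene CXCL8 (1.87), the cytokine gene CSF2 (1.46) and the inhibitor genes TNFAIP3 (1.41) and NFKBIA (1.40). At 7 days 9 were called higher and none lower (median 1.19), where 16.7% of all genes were higher. They were led by MMP3, a matrix protease gene, at 0.196 ± 0.156 CPM in untreated and 8.75 ± 2.08 CPM in 7-day libraries (5.39), by MMP1, at least 8.04-fold higher, by CXCL8 (3.65) and by IL6 (2.63). MMP1 had at most 3 counts in the other groups and passed the filter only through the 7-day libraries. Its call and its place in the list's 7-day medians thus followed from the filter in part. NFKBIA was not called at 7 days (-0.018, adjusted p = 0.886, edgeR). In the knockdown 1 was called higher, CXCL8 by 0.60, and 5 were called lower (median -0.34, or -0.32 with MMP1 set to no change), where 5.18% and 7.53% of all genes were. The lower ones were the targeted NFKBIA itself by -1.36, CCL2 by -1.19, LCN2 by -0.64, ICAM1 by -0.64 and TNFAIP3 by -0.52. With lane as a factor none of the list was called higher and 5 lower in the knockdown. IL6 was at 0.317 ± 0.242 CPM in untreated and 0.261 ± 0.156 CPM in knockdown libraries (SD, n = 5) and was not called. IL1A and IRAK2 were called higher in the knockdown. In the same libraries more genes of this list were called lower than higher, also with the targeted NFKBIA set aside. The list's median in the knockdown includes NFKBIA. From 1.5 h to 7 days 7 were called higher and 3 lower (median 0.41), where 16.8% and 12.6% of all genes were, the latter being NFKBIA (-1.42), TNFAIP3 (-0.87) and PTGS2 (-0.77). At 7 days against the knockdown 13 were called higher and none lower (median 1.52), where 15.8% and 9.89% of all genes were. CXCL1 was at 0 in all 20 libraries and CXCL2 had at most 3 counts. The plot of IL-1 response genes shows the 3 comparisons with untreated cells.

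**Figure D4:**
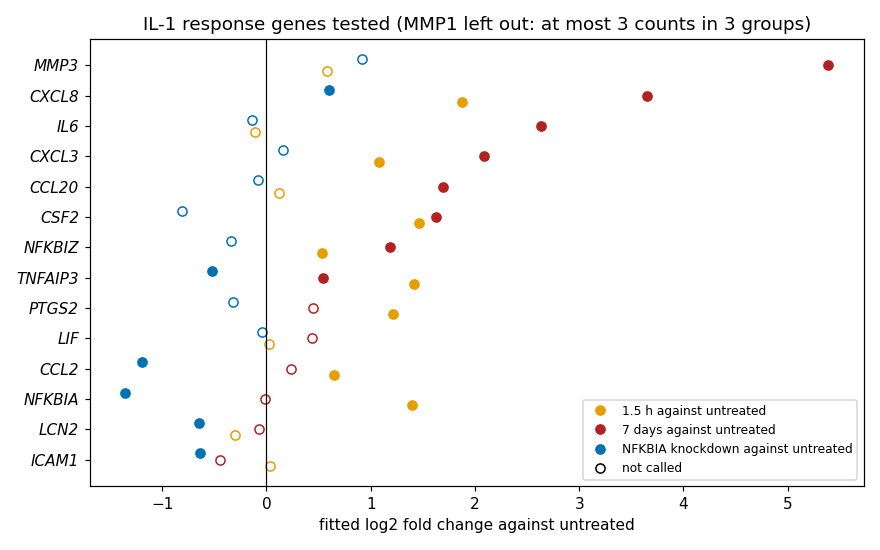
Fitted log2 fold changes against untreated cells of 14 IL-1 response genes at 1.5 h, at 7 days and in the NFKBIA knockdown (filled points are called, open points are not; MMP1 is left out for its few counts). NFKBIA and TNFAIP3 are highest at 1.5 h, MMP3, CXCL8 and IL6 at 7 days, and 5 genes are called lower in the knockdown.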

How the data were processed

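Stranded mRNA libraries of U2-OS cells were sequenced as single reads, per the study's methods. The submitters' processing notes name bcl2fastq, Trimmomatic, STAR 2.4.2a and the build hg19. The counting tool, annotation and strand setting are not given in the sources used here. The authors deposited whole-number read counts of 20314 genes, not normalized, with gene model lengths, and all columns of values belonged to 1 of the 20 libraries. Replicates are named as such in the labels. No pair of libraries held identical counts.

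The deposited counts entered edgeR 4.0.16 under R 4.3.3 (filterByExpr with a minimum count of 10, TMM scaling, 1 term per group, all 20 libraries, quasi-likelihood test). Standard errors came from the F statistic. CPM used TMM-scaled library sizes, and log2 CPM a prior count of 2. Exact permutation tests were two-sided over 252 splits of log2 CPM. Where no library of a group had more than 3 counts, folds were computed against 3 counts a library, which covers counting error only. The script was checked on simulated data.

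Replicate numbers of the labels did not pair libraries across groups. Lane numbers were read from the sample descriptions. Alternatives were RLE and upper-quartile factors, library size alone, DESeq2 1.42.0, other filters and thresholds, a fit of the compared groups alone, lane or replicate number as a factor, single lanes, and each library left out in turn.

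The 10 genes and all lists were chosen with earlier results of these data known. All 10 genes are named. From each list up to 4 called genes with the largest change were named per comparison, and further list genes were named after their values were seen. For likeness, the 5 nearest genes were taken. Promoters came from RefSeq, in a table that held 9 of the 10 genes. Figures were drawn with matplotlib 3.10.9.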

Additional observations from a re-analysis of the deposited data

Results flagged for a closer look

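MYD88 in untreated replicate 5 was at 44.7 CPM, far from the 23.2 to 25.1 CPM of the other 4 untreated libraries. IL1B in replicate 3 at 1.5 h was at 0.0281 CPM, from 1 count, where the other 4 libraries of that group had 0. These were the 2 among 40 groups of 5 values in which a single library lay this far out. The chance rate of about 1 in 20 is meant for continuous values. For IL1B, a single count beside libraries at 0 lies this far out by construction, and groups at 0 throughout could not be flagged.

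The effects at 7 days and at 1.5 h, both against untreated cells, differed for IL1A and IRAK2 by the test of the difference itself. The effect on IL1A was 3.06 larger at 7 days on the log2 scale and that on IRAK2 was 1.48 larger. IL1B was at least 6.27-fold higher at 7 days than at 1.5 h, which is a description, since it passed the filter only through the 7-day libraries.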

How the results depend on the processing

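IL1A kept its call in every comparison and IRAK2 in the 4 in which it was called, under each alternative that tested them. Requiring 10 counts or more in each library left IL1A and IL1B untested, and the numbers of genes called at 1.5 h, at 7 days, in the knockdown, from 1.5 h to 7 days and from the knockdown to 7 days were then 0, 1, 1, 1 and 2. Without a filter 5 were called at 7 days against untreated and 5 against 1.5 h, since IL1RN and IL33 were then tested. Other IL-1 family genes called at 7 days then numbered 7 instead of 4, and processing and release genes 6 instead of 3 (2 instead of 1 in the knockdown). With lane as a factor 2 were called at 1.5 h (1 higher, 1 lower) and 5 in the knockdown (2 higher, 3 lower). The lower ones were MYD88 in both and IL1R1 and IL1RAP in the knockdown. Of the processing and release genes, 4 were called higher and 1 lower at 7 days, 1 each in the knockdown and 1 higher at 1.5 h, in that fit. Untreated replicate 5 alone ties untreated cells to the other lanes there. Shares of all genes were counted only in the fit without lane, with the filter and all libraries, so the counts of the alternatives have none beside them. Without a minimum on the fold change 2 of the 10 genes were called at 1.5 h and 4 in the knockdown. Leaving out each library in turn gave 1 to 1 at 1.5 h, 3 to 4 at 7 days, 2 to 4 in the knockdown, 3 to 4 from 1.5 h to 7 days and 4 to 5 from the knockdown to 7 days, and the 4 in the knockdown came without untreated replicate 4. The gene added in the comparisons of 7 days was IL1RN, which passed the filter in only some of these fits. Its mean level is highest at 7 days, so these added calls followed from the filter in part.

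Values that changed sign were those of genes not called. With upper-quartile factors IL18 in the knockdown was 0.012, and IL1R1 and MYD88 from 1.5 h to 7 days were 0.016 and 0.012 (log2 throughout). With library size alone the same were 0.046, 0.0041 and 0.00062, and IL18 and IRAK1 at 1.5 h were 0.0064 and 0.0091. With only the groups compared the latter were 0.0015 and 0.0074, and without a filter IL18 at 7 days was -0.014. With lane as a factor IL1R1 and IRAK1 were -0.32 and 0.24 at 1.5 h, IL1R1, IL1RAP and IRAK1 were -0.32, -0.13 and 0.16 at 7 days, and IL18 was 0.13 in the knockdown and -0.041 from the knockdown to 7 days. Within lane 3 IL1R1 and IRAK1 at 1.5 h were -0.32 and 0.24, and within lane 5 IL18 was -0.051. Leaving out each library in turn gave ranges of -0.015 to 0.053 for IL18 at 7 days, -0.055 to 0.024 at 1.5 h and -0.048 to 0.020 in the knockdown, -0.077 to 0.014 for IRAK1 at 1.5 h and -0.28 to 0.0057 for MYD88 at 1.5 h. The cause was not tested.

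The correlation of deviations between same-numbered libraries of different groups ran from -0.254 to 0.123, was over 0.1 in 2 of 30 pairs, and 3 of 20 libraries correlated best with their own number. With a replicate block IL1A at 7 days was 4.23 higher (adjusted p = 4.96e-12, edgeR), and no call of the 8 genes changed. Depth limits IL1B and IL33, at or near 0 counts outside the 7-day group, and IL1RN, with 1 to 16 counts a library.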
